A study of Solanum lycopersicum with 30 samples.

Results

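PR1B is a pathogenesis-related protein gene of the PR-1 family, and its values were followed in tomato (Solanum lycopersicum) leaves after tobacco mosaic virus (TMV) and after mock treatment, in 3 genotypes at 3 times. It was found as the rows of the array whose sole gene symbol in the platform annotation is PR1B, and it is 1 of 426 genes with a single symbol and a value. The array carried 2 PR1B clones, called clone A and clone B here, each printed as 2 spots. Clone A was spotted at positions 147859 and 149718 and clone B at positions 159490 and 160334 of the array's numbering. The gene identifier that the platform gives, 102577780, and the symbol were both looked up in the tomato gene table and neither was found (0 matched). The miss was not particular to PR1B: of the 430 gene identifiers of single-symbol rows on the platform, 0 were in that table. That the symbol belongs to a tomato gene was therefore not established, and its known role below is that of the symbol.

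PR-1 proteins are small secreted proteins that accumulate in leaves during defence, and in tobacco and Arabidopsis their transcripts are the usual readout of salicylic acid signalling. They were first described in tobacco leaves that react to TMV with local lesions. In tobacco that reaction depends on N, a gene for an intracellular immune receptor that recognises the replicase of the virus, stops it at the site of entry and is followed by PR-1 accumulation in the rest of the plant.

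The sun1-1 plants carried N together with a mutation that the labels describe as raising susceptibility, the resistant plants carried N, and the susceptible plants carried n. All were 28 to 35 days old, had been kept at 25 °C in days of 16 h and nights of 8 h, and received sap with TMV or mock sap 3, 9 or 27 h before sampling. Each RNA came from the leaves of 1 plant. Each array paired the RNA of a TMV plant (Cy3) with that of a mock plant (Cy5) of the same genotype and time, with 3 arrays per time for sun1-1, 4 for resistant and 3 for susceptible leaves. The labels do not say how the resistance gene came into the lines or whether sun1-1 is more than a single isolate. On 2 resistant arrays, replicate 4 at 9 h and replicate 4 at 27 h, the label of the TMV channel names another time than the title, and the titles were followed.

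The values are log2 ratios of the 2 channels, with the sign as deposited. Which channel is the numerator is not stated and the dyes were never exchanged, so a positive value means more signal in the numerator channel and was not read as a rise or a fall after TMV. A constant dye effect on the PR1B clones would sit in every ratio but cancels between genotypes and between times where the same clones have a value. A ratio also gives no transcript level, so neither the abundance of PR1B nor the leaf origin of the RNA could be checked. In whole leaves, a change in the number of cells with the transcript and a change in transcript per cell cannot be told apart.

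An array gave values for 1970 to 9164 features, where a feature is a single-symbol gene or a clone without a single symbol, 12212 in all. Within an array the ratios had an SD of 0.219 to 1.34, the largest on sun1-1 3 h replicate 3. Replicate arrays were little alike across features: of the 36 pairs within a group, 14 correlated below 0, and the range was -0.376 to 0.473. The lowest belonged to resistant 27 h replicates 1 and 2, the 1 pair below -0.3, and since the labels give both arrays the same dyes their direction was kept. The values of sun1-1 27 h replicate 2 stood 1 row out of place and were moved back: across features the array correlated with the rest at a mean absolute r of 0.174 after the move and 0.0120 as deposited.

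PR1B was positive on 17 and negative on 12 of the 29 arrays where it had a value, between -1.60 and 3.57, and no comparison of genotypes or times passed the test. The 6 groups that carry N, sun1-1 and resistant, all had positive means, while the 3 susceptible groups had negative means, but 5 of these 9 means changed sign when 1 array was left out, and scaling the arrays to 1 spread turned sun1-1 3 h to -0.089 and susceptible 9 h to 0.0031. The means that turned were those of sun1-1 3 h (-0.20 without replicate 3), sun1-1 27 h (-0.05 without replicate 3), resistant 3 h (-0.094 without replicate 1, and -0.032 with array quality weights), susceptible 9 h (0.26 without replicate 1) and susceptible 27 h (0.23 without replicate 2). The highest mean was that of resistant leaves at 9 h (1.21), whose replicates ran in opposite directions, and the most even group was sun1-1 at 9 h (0.79), positive on all of its arrays. The lowest mean was that of susceptible leaves at 3 h (-0.69). Limma, a linear model with a spread shared over features, was fitted to all features in 28 comparisons. It passed PR1B in none of them at a Benjamini-Hochberg adjusted p of 0.05 (adjusted p = 0.563 to 1), and gave it an unadjusted p under 0.05 in 2.

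**Figure D1:**
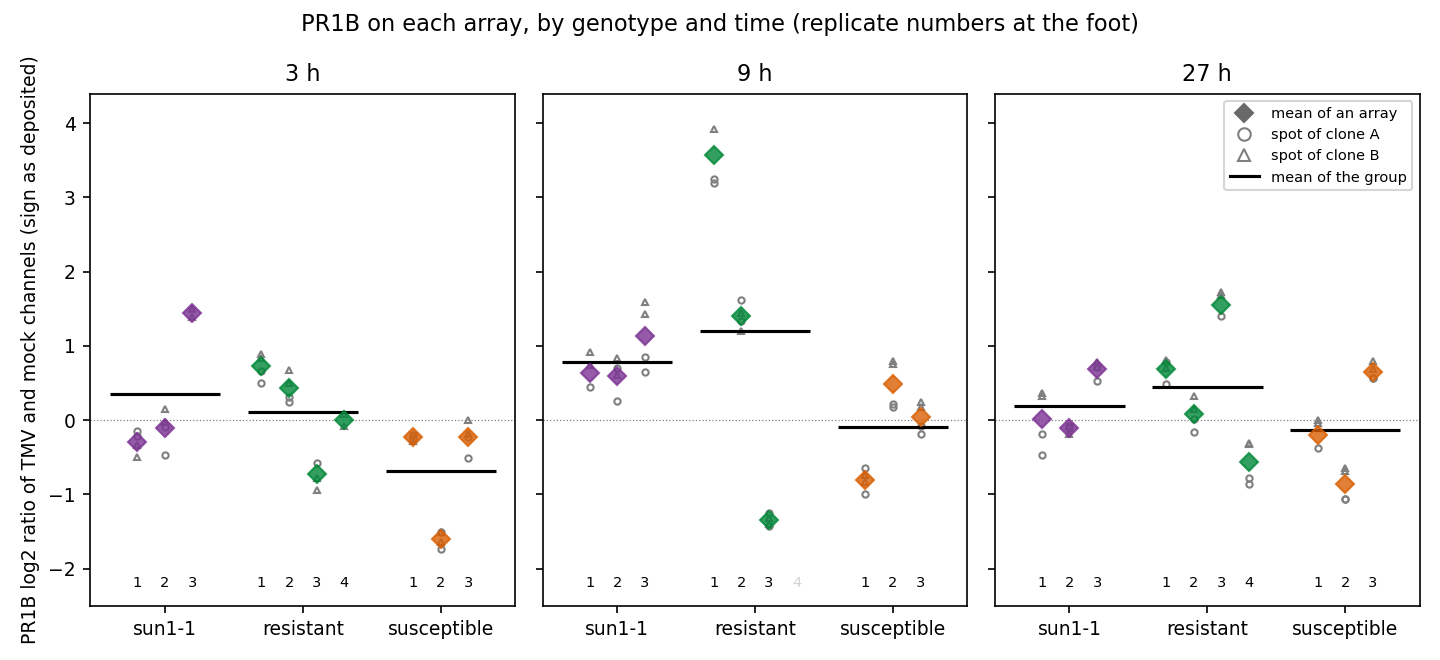
PR1B log2 ratio (y axis, sign as deposited) on each array, by genotype (sun1-1, resistant, susceptible) and time (3, 9 and 27 h). Diamonds are array means, open circles and triangles the spots of clones A and B, and bars the group means; resistant 9 h replicate 4 had no value, and the 3 other arrays of that group lie at 3.57, 1.40 and -1.35.

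At 3 h, PR1B on the sun1-1 arrays was -0.30, -0.11 and 1.45, in the order of replicates 1, 2 and 3. The first 2 lay close to 0 and the third far above them, on the array with the widest spread of the study, where 301 of 2450 features were higher still. On that array only clone B had a value. On the resistant arrays at 3 h it was 0.72, 0.43, -0.72 and 0.01 for replicates 1 to 4, so that both signs occurred here too, and the value of replicate 4 again came from clone B alone. The susceptible arrays at 3 h gave -0.23, -1.60 and -0.23, all below 0. Susceptible leaves at 3 h were the only group in which every array was negative, which held for 16.2% of all features measured on 3 arrays of that group.

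The group means at 3 h were 0.35 in sun1-1 (SD 0.96, n = 3), 0.11 in resistant (SD 0.63, n = 4) and -0.69 in susceptible leaves (SD 0.79, n = 3). Replicate 2 set the level of the susceptible mean, which was -0.23 without it. On that array only 10 of 7503 features were lower than PR1B, and its 4 spots gave -1.74, -1.51, -1.51 and -1.64. The lowest sun1-1 value, -0.30, lay below the susceptible arrays at -0.23, so no 2 genotypes were separated at 3 h.

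At 9 h, PR1B on the sun1-1 arrays was 0.64, 0.60 and 1.13, and on each of these arrays it was among the highest 5% of features. This was the only group in which all arrays were positive, as 9.22% of all features measured on 3 arrays of the group were. On the resistant arrays at 9 h it was 3.57, 1.40 and -1.35 for replicates 1, 2 and 3, and replicate 4 had no value. On replicate 1 a single feature of 7457 exceeded PR1B, on replicate 2 there were 43 of 4929, and on replicate 3 only 4 of 3855 were lower. PR1B thus stood near the top of the distribution on the first and second arrays and near the bottom on the third.

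The spots of the resistant 9 h arrays agreed within each array. Those of replicate 1 read 3.25, 3.19 and 3.93, the last from clone B, whose other spot was empty, and those of replicate 3 read -1.25, -1.43, -1.32 and -1.40. A feature with a 2-fold ratio or more in both directions within this group was rare: PR1B was 1 of 11 among 5386 features, or 0.204%. Across all features, replicate 1 correlated with replicate 3 at r = 0.287, whereas replicate 2 correlated with replicate 3 at -0.240 and with replicate 1 at -0.047. Replicate 3 thus opposed both other arrays in PR1B, but across features its r was positive with replicate 1 and negative with replicate 2. Why replicate 3 differed in PR1B was not tested.

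The susceptible arrays at 9 h gave -0.80, 0.49 and 0.04, on both sides of 0. The means at 9 h were 0.79 in sun1-1 (SD 0.29, n = 3), 1.21 in resistant (SD 2.47, n = 3) and -0.09 in susceptible leaves (SD 0.66, n = 3). The 3 sun1-1 values lay above the 3 susceptible values without overlap, while the resistant values spanned both groups.

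At 27 h, PR1B on the sun1-1 arrays was 0.01, -0.11 and 0.69. Only replicate 3 stood clear of 0, among the highest 5% of features of its array. On the resistant arrays at 27 h it was 0.69, 0.08, 1.55 and -0.57 for replicates 1 to 4. On replicate 3 it was again near the top, with 1 of 3224 features higher, and the negative value was that of the array whose TMV label names 9 h. The susceptible arrays at 27 h gave -0.20, -0.86 and 0.65. The means at 27 h were 0.20 in sun1-1 (SD 0.43, n = 3), 0.44 in resistant (SD 0.90, n = 4) and -0.14 in susceptible leaves (SD 0.76, n = 3), and the ranges of all 3 genotypes overlapped. The resistant mean was 0.069 without replicate 3 and 0.78 without replicate 4, the array whose TMV label names 9 h.

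Ordered by their means, the groups ran from resistant 9 h, sun1-1 9 h, resistant 27 h, sun1-1 3 h, sun1-1 27 h and resistant 3 h to susceptible 9 h, susceptible 27 h and susceptible 3 h. Each neighbouring pair in that order differed by less than 1.04, the SD of PR1B between replicate arrays pooled over the groups (20 residual degrees of freedom). The SD of the 9 group means themselves was 0.55. A mean of 3 or 4 arrays varies less than a single array, so the 2 SDs are given side by side and not as a test. Of the 9 groups, 7 held both signs.

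The wide spread lay between arrays and not between spots. The SD of a spot about the mean of its duplicate pair was 0.122 over 51 pairs, and the range of the PR1B spots within an array had a median of 0.382 (0.085 to 0.943). Clones A and B correlated at r = 0.971 (Spearman rho 0.929) over the 27 arrays with both, points that share their array and its hybridisation. Clone B averaged 0.33 and clone A 0.09 on those arrays, and clone B was the higher on 21 of 27 (mean difference 0.24, SD 0.27, two-sided permutation p = 7.0e-05). All 4 spots had a value on 22 arrays, 3 spots on 5 and 2 spots on 2, so a mean from clone B alone leans upward by this offset.

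PR1B had the largest spread between replicate arrays of the 302 single-symbol genes with at least 15 residual degrees of freedom. Among all 3839 features with as many, 13 had a larger pooled SD, and the median was 0.362. The next gene was LOC102577518, with a pooled SD of 1.02, so PR1B headed the genes by a small margin. The pooled SD of PR1B, 1.04, took in resistant leaves at 9 h, where the SD was 2.47 on 3 arrays. In every other group the SD of PR1B was between 0.29 and 0.96. The rank of PR1B without resistant leaves at 9 h was not computed. PR1B differed 2-fold or more between the channels on 7 of 29 arrays (24.1%), 5 of them positive and 2 negative, where a median of 1.46% of features did so on an array. It was among the highest 5% of features on 10 arrays and among the lowest 5% on 5.

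**Figure D2:**
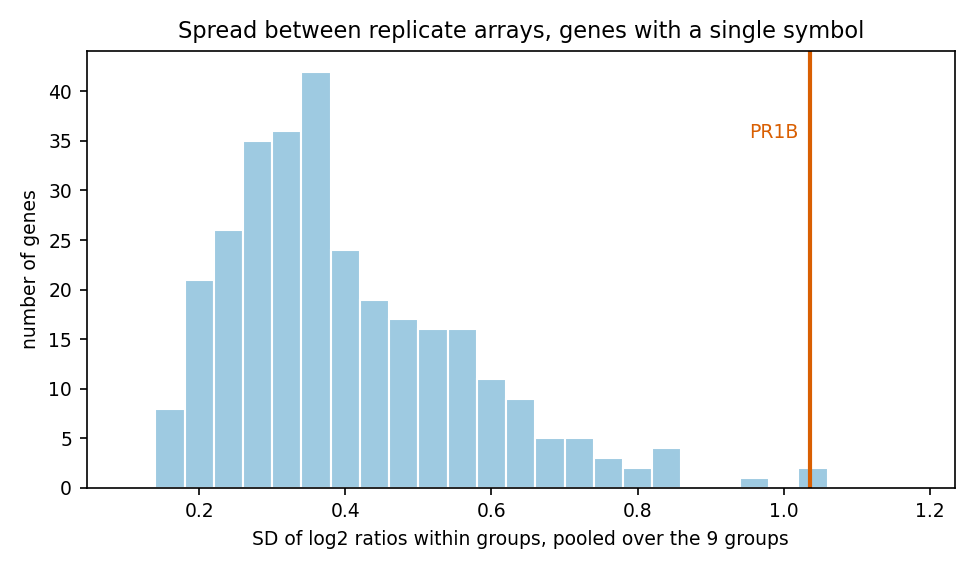
Number of single-symbol genes (y axis) by the SD of their log2 ratios between replicate arrays, pooled over the 9 groups (x axis), for 302 genes. The line marks PR1B at 1.04, the largest value, which takes in resistant leaves at 9 h with an SD of 2.47.

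No relation of the size of PR1B to the overall spread of an array was shown, which does not exclude a weak one. Across 29 arrays the PR1B ratio and the SD of all features on the array had r = 0.234 (permutation p = 0.179) and rho = 0.133 (permutation p = 0.494), and r = 0.113 without the 2 arrays farthest from the median SD. The absolute size of the PR1B ratio and that SD had r = 0.165 (permutation p = 0.307) and rho = 0.128 (permutation p = 0.507), or r = 0.134 without 2 arrays. The PR1B ratio and the number of features with a value had r = -0.067 (permutation p = 0.735) and rho = -0.115 (permutation p = 0.550), or r = 0.015 without 2 arrays. The adjusted p of r over these 3 relations was 0.460, 0.460 and 0.735. The array with the widest spread, sun1-1 3 h replicate 3, held a PR1B value inside its 5th to 95th percentile band, whereas the largest PR1B ratios lay outside the bands of their arrays.

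**Figure D3:**
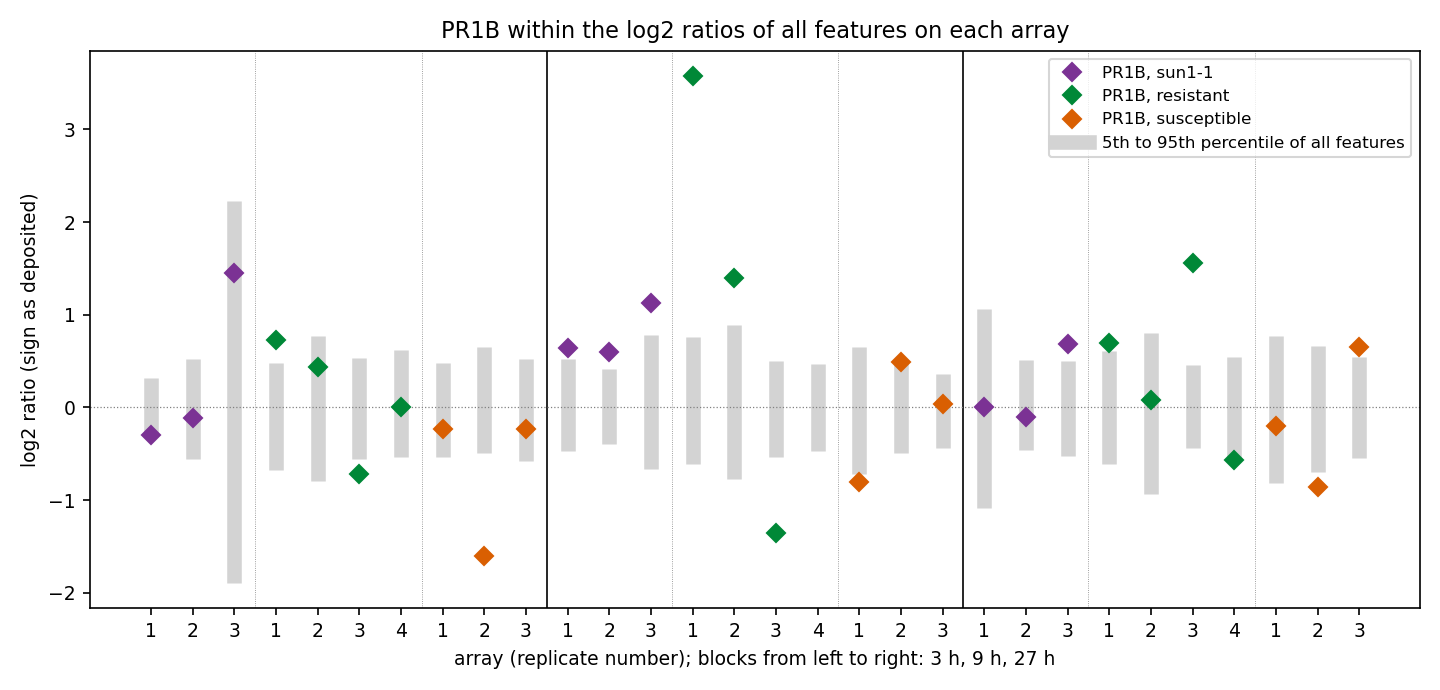
PR1B log2 ratio (diamonds) on each array against the 5th to 95th percentile of all features on that array (grey bars), in blocks of 3, 9 and 27 h and within a block sun1-1, resistant and susceptible. PR1B lies above its bar on 10 arrays and below it on 5; resistant 9 h replicate 4 has a bar and no PR1B value.

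The first comparison asked whether the TMV and mock channels differed in PR1B within a genotype at a time. Resistant leaves at 9 h had the smallest p: mean 1.21, limma SE 0.535, 95% interval half-width 1.10, unadjusted p = 0.0329 and adjusted p = 0.792. That comparison gave an unadjusted p under 0.05 to 6.28% of its 5386 features and an adjusted p under 0.05 to 0%. The SE rests on a spread shared by all groups, and the group's own SD of 2.47 was larger than the pooled 1.04. An exact two-sided sign-flip test over its 3 arrays gave p = 0.5, with 0.25 the smallest value that 3 arrays allow.

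This mean turned on single arrays. It was 2.49 (SE 0.499) without replicate 3, 0.02 without replicate 1 and 1.11 without replicate 2. Without that replicate 3 alone the limma adjusted p was 0.0679, and with replicate 3 of every group left out it was 0.0660. A limma fit of clones in place of genes that also left out replicate 3 of every group, added after the data were seen, passed both clones, clone A at 2.35 (adjusted p = 0.0418) and clone B at 2.62 (adjusted p = 0.0444). That fit changed the features tested and the arrays together, and its values for resistant leaves at 9 h describe 2 of the 3 measured arrays. In the other 8 groups PR1B had adjusted limma p-values of 0.926 to 1 and unadjusted p-values of 0.153 to 0.864. The sun1-1 9 h mean of 0.79 had a limma SE of 0.535 and an exact sign-flip p of 0.25, the smallest possible.

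Averaged over the genotypes, PR1B was -0.08 at 3 h (SE 0.296, positive on 4 of 10 arrays), 0.63 at 9 h (SE 0.309, positive on 7 of 9) and 0.17 at 27 h (SE 0.296, positive on 6 of 10). The mean at 3 h was 0.07 without susceptible replicate 2, 0.03 without sun1-1 replicate 1 and 0.01 without resistant replicate 3, and the mean at 27 h ran from 0.04 to 0.29 with single arrays left out. The mean at 9 h had an unadjusted limma p of 0.0504 and an adjusted p of 1, with an exact sign-flip p of 0.223; it was 1.06 without resistant replicate 3 and 0.24 without resistant replicate 1. Over all 9 groups the mean was 0.24 (SE 0.173, positive on 17 of 29 arrays, limma adjusted p = 0.563). In these fits limma called 0.0933% of 5357 features for the mean at 3 h, 0.0724% of 4142 over the 9 groups and 0% at 9 h and 27 h, and PR1B was not among those called.

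The second comparison asked whether N alters the response, with resistant set against susceptible leaves. The difference in mean log2 ratio was 0.80 at 3 h (SE 0.708), with the resistant array higher in 10 of 12 pairs of arrays, 1.30 at 9 h (SE 0.757), higher in 6 of 9, and 0.58 at 27 h (SE 0.708), higher in 9 of 12. The sign was the same at each time, and the ranges overlapped at each time. Single arrays moved these values: the 3 h difference was 0.34 without susceptible replicate 2, and the 27 h difference was 0.21 without resistant replicate 3, 0.21 without susceptible replicate 2, 0.91 without resistant replicate 4 and 0.97 without susceptible replicate 3. Exact two-sided permutation tests gave p = 0.2, 0.5 and 0.4 for 3, 9 and 27 h, and limma gave adjusted p-values of 1, 0.765 and 0.946, with 0% of features called at any time. Without resistant 9 h replicate 3 the 9 h difference was 2.58 (limma adjusted p = 0.293), and without replicate 1 it was 0.12.

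Averaged over the 3 times, PR1B was 0.59 in resistant and -0.31 in susceptible leaves, a difference of 0.89 (SE 0.418, 95% interval 0.03 to 1.75). Its unadjusted limma p was 0.0427 and its adjusted p 0.999, and 3.42% of 4392 features had an unadjusted p under 0.05 in that comparison (0% adjusted). The exact permutation of genotype labels within each time gave p = 0.111 (0.166 adjusted over 3 pairs of genotypes). The resistant 9 h arrays decided much of this value. Without replicate 3 of that group the difference was 1.32 (exact p = 0.00841), and without replicate 1 it was 0.50 (exact p = 0.268); over all 20 arrays left out in turn these were the largest and the smallest.

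The third comparison asked whether the sun1-1 mutation alters the response of plants with N. The difference of sun1-1 from resistant leaves was 0.24 at 3 h (SE 0.708), -0.42 at 9 h (SE 0.757) and -0.24 at 27 h (SE 0.708), without a common sign. The 9 h difference was 0.76 without resistant replicate 1 and -1.70 without resistant replicate 3, and that at 3 h was -0.32 without sun1-1 replicate 3. Averaged over the times it was -0.14 (SE 0.418, 95% interval -1.003 to 0.72, exact p = 0.806, adjusted limma p = 0.993), or 0.25 without resistant 9 h replicate 1 and -0.57 without replicate 3 of that group. The interval holds differences of up to 2-fold in the direction of lower sun1-1 values, so a like response of the genotypes was not shown either. Over the 3 times the sun1-1 values had an SD of 0.61 and ran from -0.30 to 1.45, and the resistant values had an SD of 1.34 and ran from -1.35 to 3.57. The wide resistant range came from 9 h (SD 0.29 in sun1-1, 2.47 in resistant leaves), and at 3 h the order was the other way (SD 0.96 in sun1-1, 0.63 in resistant leaves). A difference in spread was not tested.

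Sun1-1 leaves were also set against susceptible leaves, in a comparison that shares its arrays with the previous ones. The difference of sun1-1 from susceptible leaves was 1.04 at 3 h (SE 0.757, sun1-1 the higher in 7 of 9 pairs of arrays), 0.88 at 9 h (SE 0.757, 9 of 9) and 0.33 at 27 h (SE 0.757, 7 of 9). The 3 h difference was 0.58 without susceptible replicate 2 and 0.48 without sun1-1 replicate 3, and the 9 h difference was 0.52 without susceptible replicate 1. At 27 h the difference turned to -0.032 without susceptible replicate 2, and was 0.09 without sun1-1 replicate 3 and 0.73 without susceptible replicate 3. The 9 h arrays did not overlap, as was the case in the same direction for 5.16% of the 4517 features measured on 3 arrays of both groups. The exact permutation p at 9 h was 0.1, the smallest that 3 against 3 arrays allow, and 0.72 after adjustment over the 9 differences at single times. Limma gave an adjusted p of 0.956 with 0% of features called.

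Over the 3 times, sun1-1 averaged 0.44 and susceptible leaves -0.31, a difference of 0.75 (SE 0.437, 95% interval -0.15 to 1.65). The exact permutation within times gave p = 0.0233, or 0.0698 after adjustment over the 3 pairs of genotypes, and limma gave an unadjusted p of 0.0984 and an adjusted p of 0.999. The limma SE depended on arrays outside this comparison, through the spread shared by all groups. Without resistant 9 h replicate 3 the SE was 0.333, with an unadjusted limma p of 0.0335 and an adjusted p of 0.999. With each of the 18 arrays left out in turn, the difference stayed between 0.57 and 0.88 and the unadjusted exact p between 0.0015, without susceptible 27 h replicate 3, and 0.0655, without susceptible 3 h replicate 2. Single sun1-1 arrays were positive on 6 of 9, resistant arrays on 8 of 11 and susceptible arrays on 3 of 9.

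**Figure D4:**
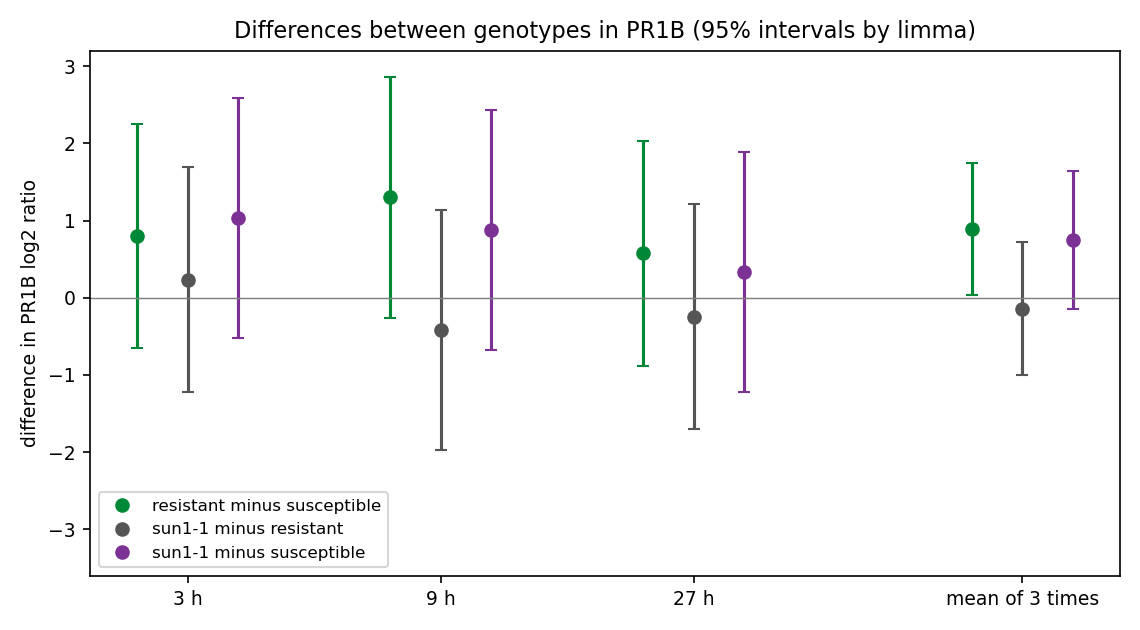
Differences between genotypes in mean PR1B log2 ratio (y axis), at 3, 9 and 27 h and averaged over the times, with 95% limma intervals as bars. The interval of resistant minus susceptible averaged over the times (0.03 to 1.75) is the only one that does not hold 0.

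The last comparison asked whether PR1B changed with time within a genotype. The moderated F of limma over 3, 9 and 27 h was 0.33 in sun1-1 (exact permutation p = 0.511), 1.23 in resistant (exact p = 0.637) and 0.39 in susceptible leaves (exact p = 0.571). The 9 h mean was the highest of the times in each genotype, by a margin within the spread of the arrays. Limma gave adjusted p-values of 0.951, 0.800 and 0.999 in that order, with 0% of features called. In resistant leaves the F depended on single arrays: without replicate 3 at 9 h it was 8.06 (limma adjusted p = 0.750), and without replicate 1 at 9 h it was 0.29.

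Other genes of defence were counted from a list of symbols chosen with earlier results of these data known. Besides PR1B, 7 symbols of the list were on the array: STWRKY8, a WRKY transcription factor, CAT1, a catalase that breaks down hydrogen peroxide, DHAR and DHAR2, dehydroascorbate reductases of the ascorbate cycle, VPE2, a vacuolar processing enzyme (a protease family needed in tobacco for the cell death that N brings about), HPL, hydroperoxide lyase of the oxylipin pathway, and PPO, polyphenol oxidase. No symbol of salicylic acid signalling or of the kinases and chaperones was matched. Matching was by symbol, so genes named only by a LOC number and clones without a single symbol could not match. The array may therefore carry more genes of these kinds. None of the 7 passed limma in any of the 28 comparisons in either direction (lowest adjusted p = 0.104). Of all features, limma called at most 0.0933% in any of these comparisons, so this count follows the background and is no result about these genes. The median of their mean log2 ratios lay between -0.14, in resistant leaves at 27 h, and 0.15, in sun1-1 leaves at 27 h, over the 9 groups, and that of all features between -0.01 and 0.02. In resistant leaves at 9 h it was 0.11, as in susceptible leaves at 9 h.

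None of these genes tracked PR1B closely over the arrays. As a description, over arrays that share hybridisation and plants, Pearson's r with PR1B was 0.238 for CAT1 (29 arrays), 0.029 for DHAR, -0.004 for PPO, -0.127 for STWRKY8 (28 arrays), -0.193 for DHAR2, -0.233 for VPE2 and -0.359 for HPL. STWRKY8 was 0.32, 0.94 and 0.49 on resistant 9 h replicates 1, 2 and 3, positive on each where PR1B changed sign. CAT1 on the same arrays was -0.01, 0.78 and -0.03, and VPE2 was -1.32, 1.28 and -0.39. HPL was -0.55, 0.01 and 0.47 and DHAR2 was -0.33, -0.39 and 0.24, with the sign opposite to PR1B on replicates 1 and 3. DHAR was -0.33, 0.64 and -0.19 and PPO was 0.51, 0.09 and 0.20. None of the 7 was positive on replicate 1 and negative on replicate 3, as PR1B was.

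Of 334 single-symbol genes with at least 20 arrays in common, those most like PR1B were LOC102577744 (r = 0.568, rho = 0.427, 20 arrays), LOC102577473 (r = 0.521, rho = 0.482, 20 arrays) and EI2 (r = 0.499, rho = 0.507, 27 arrays). Without the 2 arrays of most extreme PR1B the r was 0.369 for LOC102577744, 0.450 for LOC102577473 and 0.502 for EI2. EI2, measured on all 3 resistant 9 h arrays, was 0.25, 0.78 and -0.25 there, of the sign of PR1B on each. The least like were LOC102588383 (r = -0.532, rho = -0.389, 23 arrays) and LOC102588091 (r = -0.513, rho = -0.268, 26 arrays). Without the 2 arrays their r was -0.128 and -0.234, so these relations rested on them.

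Closer patterns occurred among the clones with no single symbol, picked here after their values were seen from 5336 features. The clone at spot 148029 had r = 0.889 with PR1B over 22 arrays (rho = 0.791, r = 0.701 without 2 arrays) and shared its sign on 18 of them. Deviations from the group means gave r = 0.852, so a likeness was seen between replicates. This r includes resistant 9 h replicates 1 and 3, and its value without them was not computed. The group means were partly alike too. Both were highest in resistant leaves at 9 h (1.61 for the clone) and negative in every susceptible group, but opposite in sign in sun1-1 leaves at 3 h (-0.10 for the clone). On the resistant 9 h arrays the clone read 3.87, 1.33 and -0.38, high where PR1B was high and negative where PR1B was negative. Its pooled SD between replicate arrays was 0.985, close to that of PR1B, and the next clone, at spot 159105, had r = 0.758 over 23 arrays (rho = 0.650, r = 0.479 without 2 arrays).

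**Figure D5:**
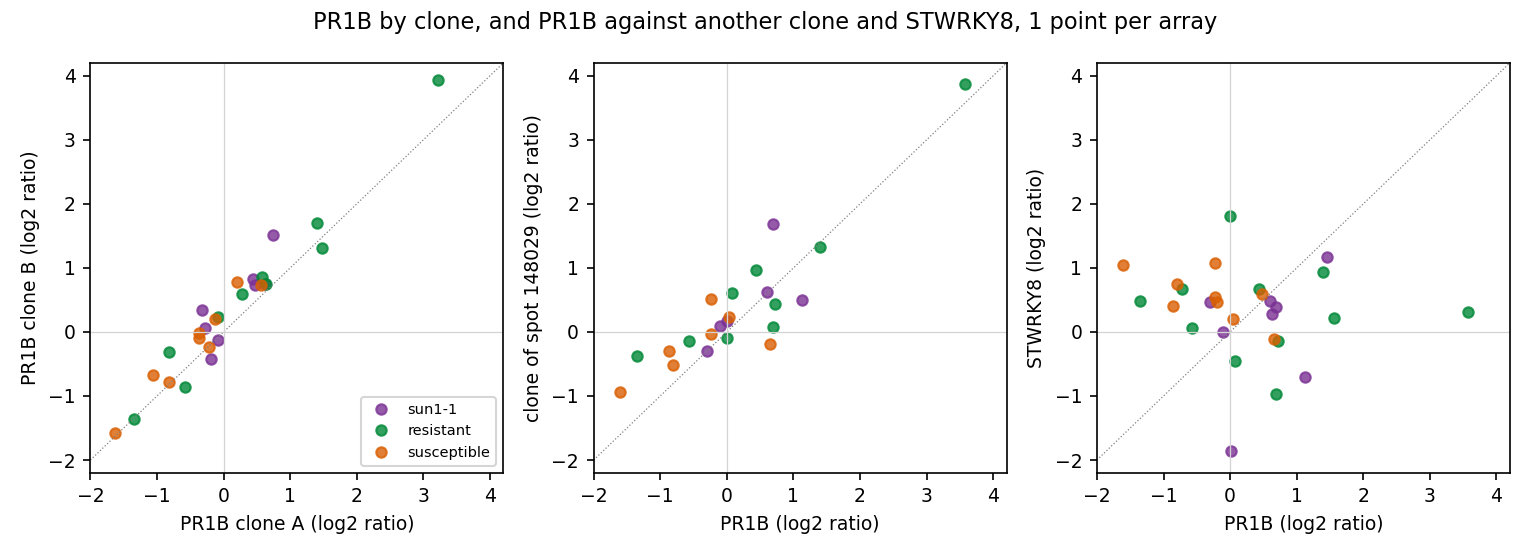
Log2 ratios with 1 point per array, coloured by genotype: PR1B clone B against clone A (left), the clone of spot 148029 against PR1B (middle) and STWRKY8 against PR1B (right), with the line of equal values dotted. The clones of PR1B lie along the line (r = 0.971), the clone of spot 148029 follows it more loosely (r = 0.889) and STWRKY8 shows no such relation (r = -0.127).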

How the data were processed

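Per the labels, each array held a Cy3 TMV sample and a Cy5 mock sample. The authors deposited a log2 ratio per spot. Per the submitters' processing notes they used limma, with no version. How the arrays were scanned, background-corrected and normalized, and why cells are empty, is not given in the sources used here. Base 2 was inferred from the numbers, which are logs of ratios with 2 decimals. Duplicate spots were averaged, then the clones of a symbol. Sun1-1 27 h replicate 2 was shifted by 1 row. R 4.3.3 with limma 3.58.1 fitted 1 mean for each of 9 groups to every feature with 2 or more arrays per compared group. Benjamini-Hochberg adjustment was made within each of 28 comparisons (4142 to 7889 features). The fit was also tried on simulated noise of equal spread in all features and groups. That trial does not show how the fit behaves for PR1B, whose spread differed between groups. Exact tests permuted arrays or flipped their signs (scipy 1.17.1). Named were PR1B, the 3 genes with the highest and 2 with the lowest r over at least 20 arrays, and a defence list. Members and lists were chosen with earlier results of these data known. Depth does not apply to arrays: their number limits precision. P-values rest on the spread between arrays, in which differences of plants, labelling and hybridisation cannot be told apart.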

Additional observations from a re-analysis of the deposited data

How the results depend on the processing

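Of 1409 values recomputed for 28 PR1B results under 51 other settings, 1360 kept their direction and their side of the threshold, 47 changed sign and 2 newly passed the threshold. The 2 were the means of clones A (2.35) and B (2.62) in resistant leaves at 9 h, in a setting added after the data were seen that tested clones and left out replicate 3 of every group together. Many of the 1409 values came from leaving out an array of a group outside the result, which cannot move a mean or a difference. It can move the SE and the limma p-value, because the spread is shared by all groups. The count of 1360 is therefore not a measure of stability. Scaling the arrays to 1 spread turned the mean of sun1-1 3 h to -0.089, of susceptible 9 h to 0.0031 and the difference of sun1-1 from resistant at 3 h to -0.21. Array quality weights turned sun1-1 3 h to -0.19, resistant 3 h to -0.032, susceptible 9 h to 0.0071 and the same difference to -0.15. Without the array of widest spread, sun1-1 3 h was -0.20 and the difference -0.32. Clone A had no value on that array, so clone A alone (-0.23 and -0.33) left the same array out. Clone B alone gave 0.067 in susceptible 9 h and 0.017 in susceptible 27 h. The cause was not tested. In the clone fit without replicate 3 of every group, clone A gave -0.23 in sun1-1 3 h, -0.21 in sun1-1 27 h and -0.089 in resistant 27 h. There clone A also gave -0.66 for sun1-1 against resistant at 3 h and -0.34 for the mean of genotypes at 27 h. Clone B in that fit gave -0.18 in sun1-1 3 h, -0.66 for that difference and -0.0029 for that mean of genotypes. With replicate numbers or single arrays left out (34 settings), the means that changed sign ran from -0.20 to 0.67 in sun1-1 3 h, -0.05 to 0.35 in sun1-1 27 h, -0.094 to 0.39 in resistant 3 h, -0.38 to 0.26 in susceptible 9 h, -0.53 to 0.23 in susceptible 27 h, -0.26 to 0.11 over genotypes at 3 h and -0.17 to 0.38 at 27 h. The differences that changed sign ran from -0.24 to 2.64 for resistant against susceptible at 9 h and from -0.032 to 0.73 for sun1-1 against susceptible at 27 h. For sun1-1 against resistant they ran from -0.59 to 0.76 at 3 h, -1.87 to 0.84 at 9 h, -0.58 to 0.13 at 27 h and -0.86 to 0.51 over the times.
Deviations of same-numbered arrays of different groups from their group means had r of -0.527 to 0.580 over 111 pairs (median -0.033, 30 above 0.1). Only same-numbered pairs were examined, so whether some numbers mark a shared batch cannot be told from this check. With the replicate number as a block the mean of resistant 9 h was 1.22 (limma adjusted p = 0.816), and no call changed. Only features with a value on all 30 arrays (626) could be tested in another setting, and PR1B was not among them, so it gave no value. Arrays, at 3 or 4 per group with a PR1B SD of 1.04, limit these comparisons: 95% intervals of a difference at a single time were 1.46 to 1.56 wide on each side.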
